A study of Mus musculus with 8 samples.

Results

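Expression of the insulin-like growth factor (IGF) system was followed in mouse embryonic fibroblasts lacking FIH, VHL or both. The system was taken as 10 genes: the ligands Igf1 and Igf2, the receptors Igf1r and Igf2r, and the binding proteins Igfbp2, Igfbp3, Igfbp4, Igfbp5, Igfbp6 and Igfbp7. Its members were all 28 probe sets that the platform annotation assigns to one of these genes alone, of 45037 probe sets other than controls. A probe set is the group of short probes on an Affymetrix array that together report a transcript. RNA from 8 samples was hybridized to the Mouse Genome 430 2.0 array, 2 arrays for each of 4 genotypes.

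All 4 groups were large T antigen-immortalized embryonic fibroblasts kept at 21% oxygen in high glucose DMEM with 10% serum. Wild type cells were set beside cells null for FIH, cells null for VHL and cells null for VHL and FIH together (VHL/FIH null in the labels, double null below). FIH null, VHL null and double null cells came from the lines FIHdf, VHLdf and VHLdf/FIHdf, respectively, by infection with an adenovirus carrying Cre. Each null genotype therefore rests on its own line, so genotype and line cannot be told apart. The line behind the wild type cells, and whether it met the Cre virus, is not given in the sources used here. The labels call the samples of a group biological replicates without naming separate cultures, so p-values measure the spread between these samples.

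IGF1 and IGF2 are secreted growth factors that act through IGF1R, a receptor tyrosine kinase which feeds the PI3 kinase and MAP kinase pathways. IGF2R, also the cation-independent mannose 6-phosphate receptor, takes IGF2 into lysosomes for breakdown, and the binding proteins hold the ligands in the medium and matrix and set how much reaches the receptor. VHL is the ubiquitin ligase subunit that marks hydroxylated HIF alpha subunits for destruction, and FIH (gene Hif1an) is an asparagine hydroxylase that limits their transcriptional activity. The comparisons address how loss of either protein, or of both, alters transcript levels.

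HIF dimers bind DNA at a short core, ACGTG or GCGTG. RefSeq start-site sequences (GRCm38.p6) were matched by symbol for 10 of 10 genes, giving 14 windows of the 250 bases before a start site. A match on either strand was present in 7 of the 14 windows (50.0%), which belong to 7 genes, and in 38.6% of all 32817 such windows of the mouse table. ACGTG alone occurred in 16.6% of all windows, GCGTG in 28.1%, and both in 6.14%. Igf2r, Igfbp2 and Igfbp7 were the 3 member genes with both cores in a window, and their windows are shown because all 3 transcripts differed between VHL null and wild type cells. They are written 5′ to 3′ on the gene's strand, with each core in capitals in either orientation (CACGT and CACGC are the reverse complements). The palindrome CACGTG holds ACGTG on both strands and is counted as 2 overlapping matches.
Igf2r, chr17:12769707-12769956, minus strand: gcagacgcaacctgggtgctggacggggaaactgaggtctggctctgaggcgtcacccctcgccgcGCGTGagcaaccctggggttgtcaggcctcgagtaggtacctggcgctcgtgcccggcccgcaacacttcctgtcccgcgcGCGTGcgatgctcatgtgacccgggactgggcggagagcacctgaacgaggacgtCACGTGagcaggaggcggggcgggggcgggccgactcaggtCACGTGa
Igfbp2, chr1:72824230-72824479, plus strand: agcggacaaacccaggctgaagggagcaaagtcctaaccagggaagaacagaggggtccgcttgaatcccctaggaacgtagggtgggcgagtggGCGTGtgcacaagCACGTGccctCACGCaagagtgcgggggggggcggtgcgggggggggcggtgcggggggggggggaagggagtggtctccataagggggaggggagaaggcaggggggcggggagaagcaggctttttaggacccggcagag
Igfbp7, chr5:77408046-77408295, minus strand: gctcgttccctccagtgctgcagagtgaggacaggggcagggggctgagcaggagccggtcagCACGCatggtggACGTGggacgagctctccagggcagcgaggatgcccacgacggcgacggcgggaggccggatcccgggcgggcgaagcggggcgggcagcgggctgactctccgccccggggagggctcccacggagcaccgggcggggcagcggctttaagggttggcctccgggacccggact
The Igf2r window held 6 matches, with a CACGTG near the start site and another upstream. The first Igfbp2 window held 4 around a central CACGTG, and a second Igfbp2 start site had none. The Igfbp7 window held 2. The window of Igfbp4, which also fell in VHL null cells, had no match. A match is a description of the letters in a window and not evidence of binding.

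The deposited values are MAS5 signals, brightness summaries in arbitrary linear units with a trimmed mean of 2500.01 on every array. A probe set was tested where at least 2 of the 8 arrays exceeded 291.1, the median signal over all probe sets and arrays. Changes are differences in log2(signal + 16), which understates the change of dim probe sets, and each gene was represented by its brightest tested probe set. Tests were limma contrasts in a fit over all 8 arrays, two-sided, with Benjamini-Hochberg adjustment over 11564 tested genes. A gene is said to rise or fall where the adjusted p was under 0.05. Of the 28 member probe sets, 24 were tested, 13 were above 291.1 on all 8 arrays and 4 on none. All 10 genes had a tested probe set.

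Arrays of a group correlated at 0.968 to 0.971 and arrays of different groups at 0.954 to 0.969 (log2 signals, all probe sets other than controls). The Vhl probe set averaged 3294 ± 36.0 (SD, n = 2) in wild type, 731 ± 33.2 with VHL lost and 979 ± 116 with both lost. Hif1an fell less far, from 2867 ± 206 to 1691 ± 21.7 in FIH null and 1286 ± 166 in double null cells, and it was also lower, at 2033 ± 170, in VHL null cells. Whether these probes lie in the deleted parts was not tested. Of 10 fibroblast markers, 6 were above 291.1 on all arrays, including Col1a1, Col3a1 and Pdgfrb, and Lum on none. The defining markers Alb (hepatocytes), Pecam1 and Cdh5 (endothelium), Myod1 (muscle) and Ptprc (leukocytes) were above it on no array. Of the 6 macrophage markers, Csf1r, Cd68 and Cd14 were above it on all arrays, and Adgre1, Ptprc and Lyz2 on none. The 6 macrophage markers summed to 4069 to 4212 in VHL null cells and 3143 to 3536 on the other arrays, and the 5 muscle markers to 940.1 to 995 and 465 to 878. Myod1, Myog and Myf5 were above 291.1 on no array, and no muscle marker was above it on all arrays. The part of the macrophage and muscle markers in the VHL null changes of Igf2, Igf2r, Igfbp2, Igfbp4 and Igfbp7 was not tested. In these bulk samples, fewer cells of a type and less RNA per cell cannot be told apart.

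**Figure D1:**
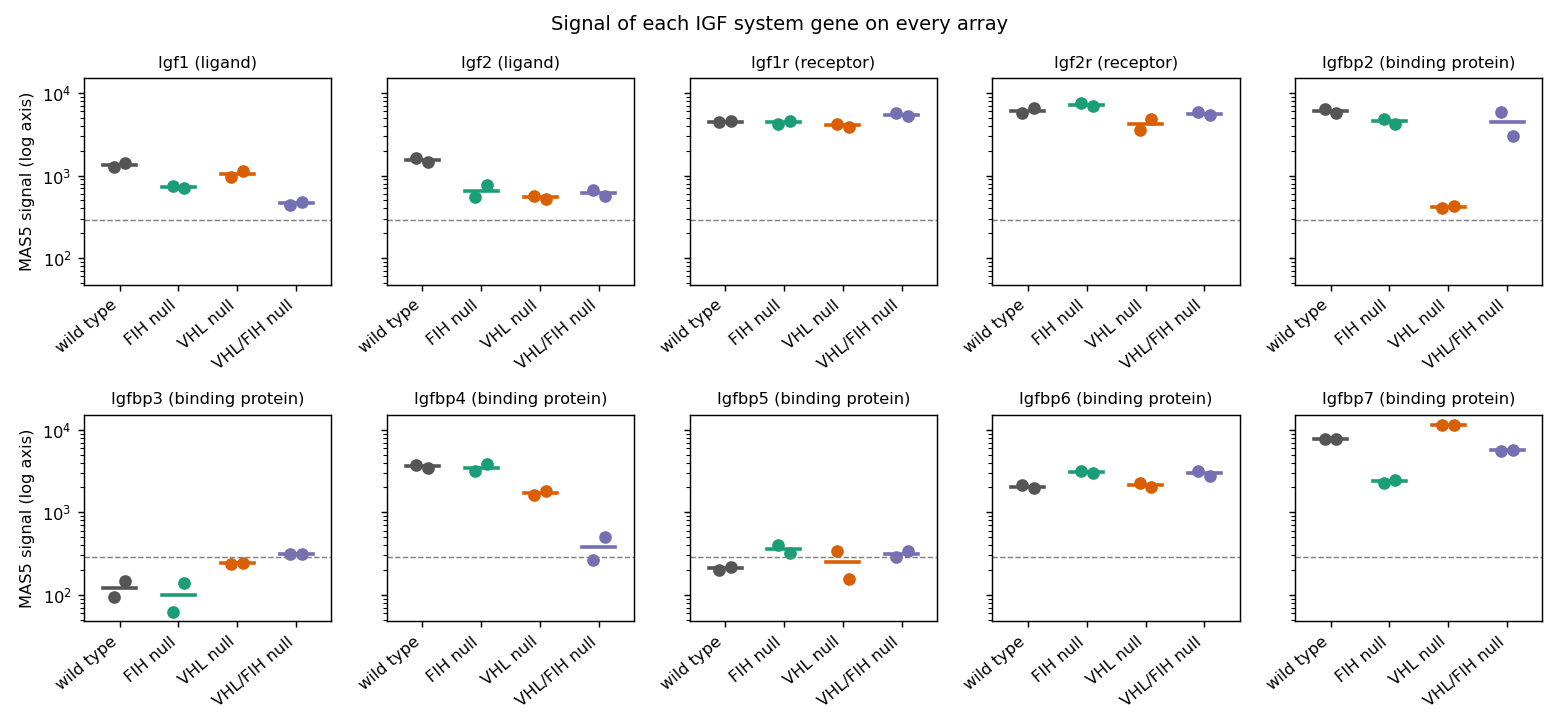
MAS5 signal (arbitrary units, log axis) of the representative probe set of each of the 10 genes on each array, by genotype; points are arrays, bars are group means and the dashed line is 291.1, the signal a probe set had to exceed. Igfbp2 was lowest on the VHL null arrays at 407 and 432, Igfbp4 was lowest on the double null arrays at 263 and 498, and Igfbp7 was lowest in FIH null cells at 2267 and 2479.

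Both ligand transcripts were lower in FIH null and in double null cells, and Igf2 also fell in VHL null cells. Igf1 (probe set 1437401_at) gave signals of 1257 and 1431 in wild type, 739 and 717 in FIH null, 956 and 1144 in VHL null, and 437 and 485 in double null cells. No 2 groups overlapped, and the order ran from wild type down through VHL null and FIH null to double null. FIH null cells lay −0.87 ± 0.16 (log2 ± SE) from wild type (limma adjusted p = 0.00890). The double null change was −1.51 ± 0.16 (adjusted p = 2.94e-05), a 2.92-fold lower mean signal. VHL null and wild type cells, neighbours in that order, differed by −0.35 (95% interval −0.71 to 0.00; adjusted p = 0.100). The double null level was also below that of VHL null cells, by −1.16 ± 0.16 (adjusted p = 2.66e-04), and that of FIH null cells, by −0.64 ± 0.16 (adjusted p = 0.00763). The call in FIH null cells was lost when any of 3 arrays was left out: wild type replicate 2 (adjusted p = 0.0881), FIH null replicate 1 (0.0519) or its replicate 2 (0.0610).

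The 4 Igf1 probe sets moved alike. In FIH null cells all 4 had log2 changes below 0, from −0.95 to −0.59, and 2 were called lower. In double null cells 4 of 4 were called lower, with changes of −1.51 to −1.02, and 4 of 4 were also called lower than in VHL null cells. None was called in VHL null cells, where the changes ran from −0.41 to −0.10.

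Igf2, the fetal growth factor expressed from the paternal allele in most mouse tissues, fell in every null genotype. Its signals (1448152_at) were 1644 and 1452 in wild type, 549 and 761 in FIH null, 568 and 522 in VHL null, and 669 and 570 in double null cells. The wild type arrays stood above all 6 others, among which the FIH null arrays overlapped those of both other groups. It changed from wild type by −1.24 ± 0.19 on FIH loss (limma adjusted p = 0.00265), −1.48 ± 0.19 on VHL loss (adjusted p = 1.44e-04) and −1.30 ± 0.19 when both were lost (adjusted p = 2.94e-04). Losing the second protein added no detected change: double null minus VHL null was 0.18 ± 0.19 (adjusted p = 0.511) and double null minus FIH null −0.07 ± 0.19 (adjusted p = 0.813). The second Igf2 probe set, 1415931_at, was above 291.1 on no array, with signals of 4.9 to 45.5, so the Igf2 result rests on a single probe set.

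Igf1r was highest in double null cells and Igf2r lowest in VHL null cells. Igf1r signals (1452982_at) were 4405 and 4562 in wild type, 4198 and 4637 in FIH null, 4196 and 3921 in VHL null, and 5695 and 5283 in double null cells. The double null arrays were the highest, and the other groups lay close together. Igf1r rose in double null cells by 0.29 ± 0.08 against wild type (limma adjusted p = 0.0125), 0.43 ± 0.08 against VHL null (adjusted p = 0.00144) and 0.31 ± 0.08 against FIH null cells (adjusted p = 0.00751). It was not called in FIH null cells (−0.02 ± 0.08, adjusted p = 0.900) or VHL null cells (−0.14 ± 0.08, adjusted p = 0.164).

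The Igf1r result depends on the probe set. Of the 5 tested, 1428967_at showed a larger rise in double null cells (0.94 ± 0.19, limma adjusted p = 0.00381), with signals of 893 and 1223 in wild type and 1976 and 2063 in double null cells. The probe set 1426565_at stayed near wild type there (−0.06 ± 0.08, adjusted p = 0.577) and was called lower in VHL null cells (−0.27 ± 0.08, adjusted p = 0.0260). With the mean of its probe sets, Igf1r was called in no pairwise comparison (0.19, adjusted p = 0.276, in double null against wild type). Scaling to the spiked hybridization controls turned that change to −0.23 (adjusted p = 0.0368). Leaving out wild type replicate 1 (adjusted p = 0.0716) or double null replicate 1 (0.0704) also ended it, and leaving out FIH null replicate 1 (0.0824) ended the rise over FIH null cells. Scaling to the hybridization controls reduced that rise to 0.05 (adjusted p = 0.671).

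Igf2r, expressed from the maternal allele in most mouse tissues, fell on VHL loss. Signals of 1424112_at were 5784 and 6518 in wild type, 7574 and 6934 in FIH null, 3574 and 4808 in VHL null, and 5858 and 5443 in double null cells. The VHL null arrays lay below all others, and double null arrays overlapped wild type. The change in VHL null cells was −0.57 ± 0.12 (limma adjusted p = 0.00319), and in double null cells −0.12 ± 0.12 (adjusted p = 0.454). Double null cells stood 0.44 ± 0.12 above VHL null cells (adjusted p = 0.0138), a call lost without VHL null replicate 1 (0.125) or double null replicate 1 (0.0747), or with no variance trend (0.0737). They stood −0.36 ± 0.12 from FIH null cells (adjusted p = 0.0307), a call that ended under 6 alternatives, among them leaving out any of the 4 arrays compared (adjusted p 0.0525 to 0.165).

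The second Igf2r probe set, 1424111_at, read 3689 and 3334 in wild type, 3568 and 3579 in FIH null, 1660 and 1923 in VHL null, and 1863 and 2532 in double null cells. Here both groups lacking VHL lay below both groups with VHL. It changed from wild type by −0.97 ± 0.14 on VHL loss (limma adjusted p = 4.61e-04) and by −0.69 ± 0.14 when both were lost (adjusted p = 0.00313). The probe sets thus differ on whether double null cells had less Igf2r than wild type, and both were called lower in VHL null cells.

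Igfbp2 showed the widest range of the family, 3.81 in log2 between its lowest and highest group. IGFBP2 binds both ligands, prefers IGF2 and carries an integrin-binding motif. Its signals (1454159_a_at) were 6500.1 and 5698 in wild type, 4860.2 and 4217 in FIH null, 407 and 432 in VHL null, and 5912 and 3000 in double null cells. The VHL null arrays were far below all others, and the double null arrays spanned the FIH null and part of the wild type range. The fall in VHL null cells was −3.81 ± 0.23 (limma adjusted p = 5.41e-07), a 14.5-fold lower mean. Double null cells were 3.28 ± 0.23 above VHL null cells (adjusted p = 1.53e-06), a 10.6-fold higher mean.

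Against wild type the double null change in Igfbp2 was −0.53 ± 0.23 (limma adjusted p = 0.0880), and in FIH null cells −0.43 ± 0.23 (adjusted p = 0.322). The FIH null fall was called without double null replicate 1 (adjusted p = 0.0352) or replicate 2 (0.0314), which enter through the shared spread. The double null change rests on which double null array is used. Without replicate 1 it was −1.02 (adjusted p = 2.34e-04), and without replicate 2 it was −0.04 (adjusted p = 0.828). Double null against FIH null was −0.10 with both arrays (adjusted p = 0.747), −0.59 without replicate 1 (adjusted p = 0.00459) and 0.38 without replicate 2 (adjusted p = 0.0346). Against VHL null cells the rise was at least 2.79 in log2 under every alternative run. Igfbp2 has a single probe set, whose _a ending marks probes shared by transcripts of a gene.

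Igfbp4 was lowest where both proteins were lost. IGFBP4 inhibits IGF action and releases its ligand when cleaved by the protease PAPP-A. Signals of 1437405_a_at were 3775 and 3464 in wild type, 3123 and 3811 in FIH null, 1619 and 1795 in VHL null, and 263 and 498 in double null cells. Wild type and FIH null arrays overlapped, VHL null arrays lay below them, and double null arrays lay lowest. The change was −1.08 ± 0.22 on VHL loss alone (limma adjusted p = 0.00275), a 2.12-fold lower mean. It was −3.26 ± 0.22 when both were lost (adjusted p = 8.95e-07), a 9.51-fold lower mean. FIH null cells differed from wild type by −0.07 (95% interval −0.56 to 0.43; adjusted p = 0.896). Double null cells were −2.18 ± 0.22 from VHL null (adjusted p = 2.71e-05) and −3.19 ± 0.22 from FIH null cells (adjusted p = 8.89e-07).

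Of 6 Igfbp4 probe sets, 5 were tested, and all 5 were called lower in double null cells. The 2 with a double null array above 291.1 changed by −3.26 and −1.89, and the 3 at or under it on both were at least 3.66-fold, 7.06-fold and 8.16-fold lower than wild type. In VHL null cells all 5 were negative, at −1.08 to −0.52, and 4 were called. In FIH null cells none was called, and the changes ran from −0.13 to 0.13. The names of all 6 end in _a, _s or _x, the suffixes for probes that are shared by transcripts of a gene or may hybridize elsewhere. The summed signal of the 4 epithelial markers was 2155 to 2466 in wild type and 2392 to 2418 in FIH null cells, and lower where VHL was lost, at 1045 to 1312 in VHL null and 931 to 1250.3 in double null cells. Of these markers, Krt18 was above 291.1 on all arrays and Cdh1 on none, and their part in the Igfbp4, Igfbp2 and Igf2r results was not tested.

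**Figure D2:**
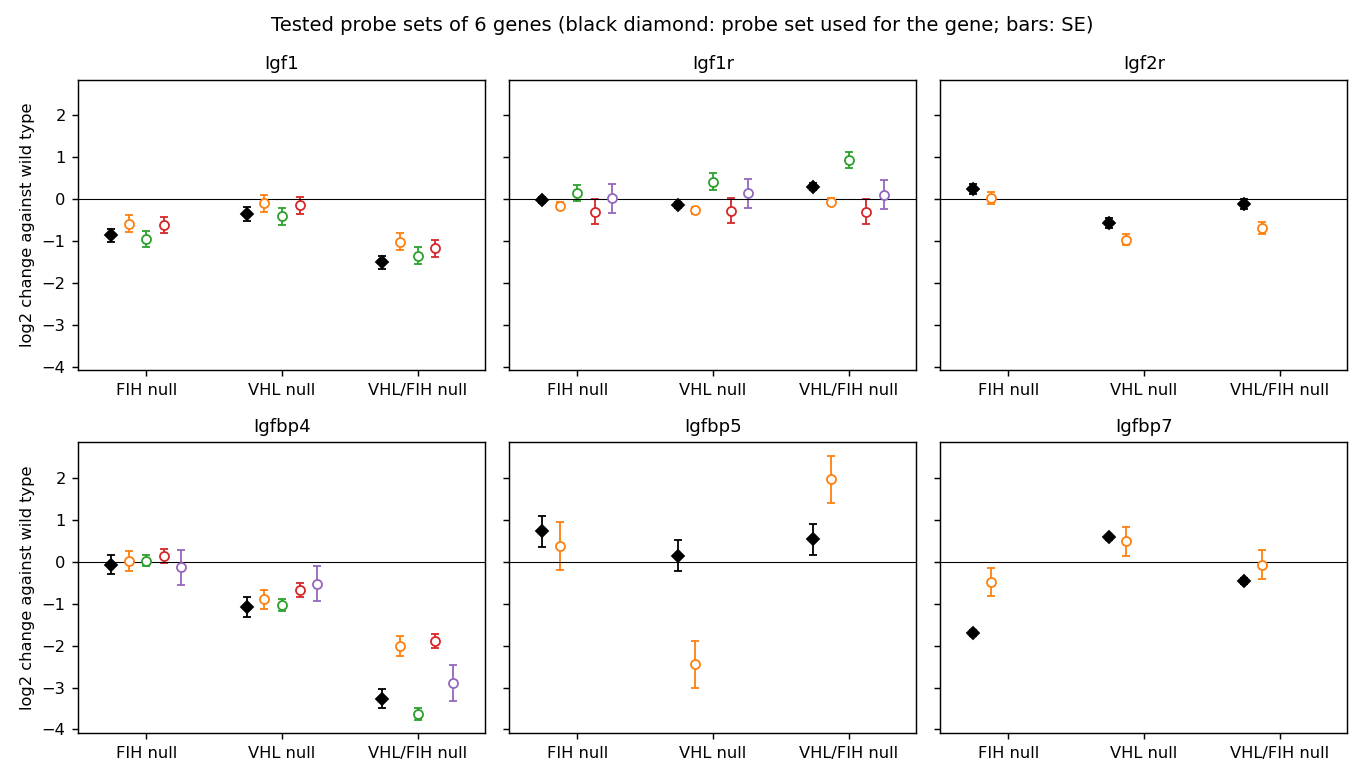
Log2 change of signal + 16 of each tested probe set against wild type in cells lacking FIH, VHL or both, for the genes with more than 1 tested probe set; each point is a probe set, black diamonds mark the one used for the gene, colours repeat a probe set across genotypes within a panel, and bars are SE. The 4 Igf1 and 5 Igfbp4 probe sets follow each other, while those of Igf1r and Igfbp5 separate.

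Igfbp7 was the member that differed between every pair of groups tested. IGFBP7 is a secreted matrix protein that binds IGFs only weakly. Signals of 1423584_at were 7691 and 7694 in wild type, 2267 and 2479 in FIH null, 11418 and 11593 in VHL null, and 5552 and 5705 in double null cells. No groups overlapped, and replicates lay close together. FIH null cells were at −1.69 ± 0.07 against wild type (limma adjusted p = 8.41e-08), a 3.24-fold lower mean, while VHL null cells rose by 0.58 ± 0.07 (adjusted p = 6.57e-05). Double null cells lay between, −0.45 ± 0.07 from wild type (adjusted p = 3.20e-04). They were −1.03 ± 0.07 from VHL null (adjusted p = 8.63e-07) and 1.24 ± 0.07 from FIH null cells (adjusted p = 1.13e-07).

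A second, dimmer Igfbp7 probe set, 1423585_at, was above 291.1 only in VHL null cells and was not called (−0.48 ± 0.34 in FIH null and 0.48 ± 0.34 in VHL null cells). With the mean of both, the double null change was −0.26 (limma adjusted p = 0.102). The third, 1437804_at, was not tested, with signals of 22.7 to 37.7. The summed signal of the 3 cartilage markers Sox9, Acan and Col2a1 was 3611 to 3873 in wild type, 1241 to 1283 in FIH null, 3695 to 4382 with VHL lost and 914 to 1278 with both lost. Their part in the Igfbp7 result was not tested. Sox9 was above 291.1 on all arrays.

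Igfbp6 rose on FIH loss in either background. IGFBP6 binds IGF2 in preference to IGF1. Signals of 1417933_at were 2116 and 1984 in wild type, 3124 and 2986 in FIH null, 2267 and 2007 in VHL null, and 3185 and 2724 in double null cells. The 4 arrays lacking FIH lay above the 4 with it. The rise was 0.57 ± 0.10 in FIH null against wild type (limma adjusted p = 0.00738) and 0.46 ± 0.10 in double null against VHL null cells (adjusted p = 0.00512). VHL loss gave no call, at 0.06 ± 0.10 with FIH (adjusted p = 0.679) and −0.05 ± 0.10 without it (adjusted p = 0.719). Double null cells were 0.52 ± 0.10 above wild type (adjusted p = 0.00214), which became −0.00 (adjusted p = 0.993) with scaling to the hybridization controls. The FIH null call ended when wild type replicate 2 (adjusted p = 0.0620) or the first FIH null array (0.0716) was left out.

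Igfbp3 and Igfbp5 were near or under the median signal, so they were measured less well. Igfbp3 (1423062_at), the main carrier of IGFs in serum, read 93.9 and 149 in wild type, 61.9 and 138 in FIH null, 239 and 246 in VHL null, and 316 and 309 in double null cells. Only the double null arrays exceeded 291.1, and the probe set passed the filter through them alone. Double null signals were thus at least 1.07-fold above the other groups with those set at 291.1. The limma fit called the difference from FIH null cells (adjusted p = 0.0209, or 0.122 without FIH null replicate 1), but the filter had already selected the probe set on its double null signals, so this is a description. Against wild type the double null difference was not called (adjusted p = 0.0550; it passed under 6 alternatives), nor was the VHL null one (adjusted p = 0.141).

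Igfbp5, a binding protein that associates with the matrix, gave different answers from its 2 probe sets. The representative, 1422313_a_at, read 203 and 217 in wild type, 398 and 318 in FIH null, 343 and 158 in VHL null, and 286 and 338 in double null cells, and was called in no comparison. The other, 1452114_s_at, read 86.3 and 175 in wild type, 176 and 156 in FIH null, 3.5 and 17.7 in VHL null, and 519 and 540.0 in double null cells. It passed the filter only through the double null arrays, which stood above all others. They were at least 1.82-fold above the others, set at 291.1, a description of values that the filter used. The other 3 groups were all under 291.1 in this probe set, so no fold or order is given among them. With the mean of both probe sets, limma called Igfbp5 against wild type in VHL null (adjusted p = 0.0403) and double null cells (adjusted p = 0.0301), calls that rest on those dim signals. The 3 adipocyte markers with a probe set summed to 1789 to 2252 on double null arrays and to 266 to 479 on the others. Adipoq and Lep were above 291.1 on no array, so most of the double null sum came from the remaining marker. The part of the adipocyte markers in the double null results for Igf1r, Igfbp3 and Igfbp5 was not tested.

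**Figure D3:**
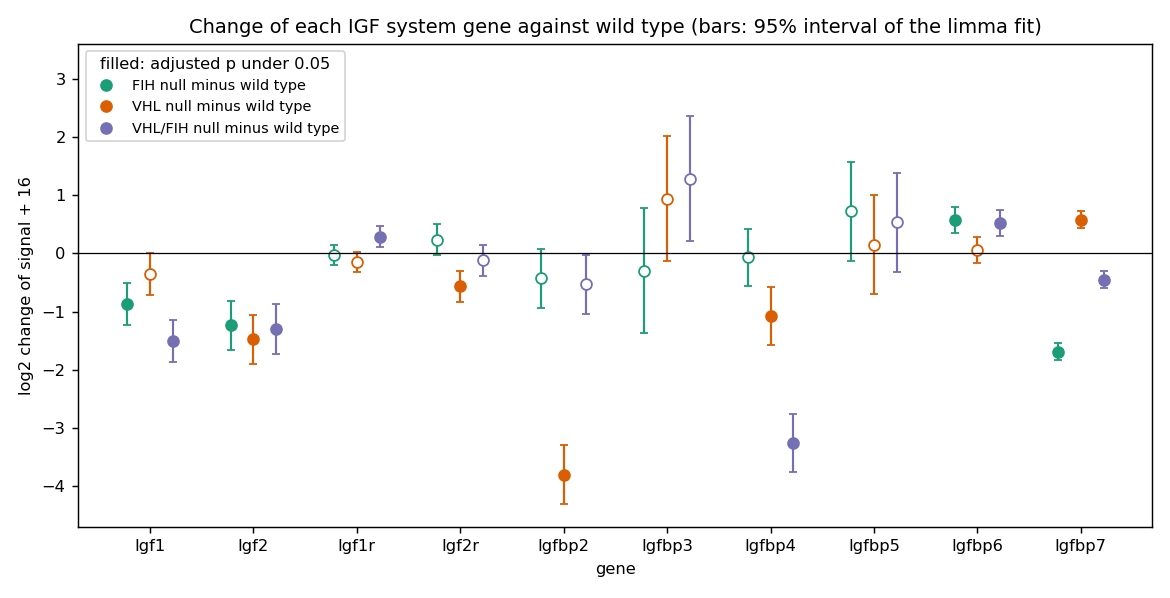
Log2 change of signal + 16 against wild type of each of the 10 genes in cells lacking FIH, VHL or both, with 95% intervals of the limma fit; filled points passed an adjusted p of 0.05. Igf1 and Igf2 lie below 0 in all 3 genotypes, and the largest falls are those of Igfbp2 on VHL loss (−3.81) and of Igfbp4 when both were lost (−3.26).

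Counted over the 10 genes, FIH null cells had 1 higher (Igfbp6) and 3 lower (Igf1, Igf2, Igfbp7), where 6.55% of all tested genes were called, 1.96% higher and 4.59% lower. The count was 2 without wild type replicate 2 or without FIH null replicate 1. The median change of the 10 was −0.18, against −0.00 over all genes. In VHL null cells 1 was higher (Igfbp7) and 4 lower (Igf2, Igf2r, Igfbp2, Igfbp4), against 43.8% of all genes called (15.5% higher, 28.4% lower), so a count of 5 of 10 is near the background. The medians were −0.25 and −0.10. In double null cells 2 were higher (Igf1r, Igfbp6) and 4 lower (Igf1, Igf2, Igfbp4, Igfbp7), against 41.4% called (17.8% higher, 23.6% lower), with medians of −0.29 and −0.05.

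Double null against VHL null cells gave 4 higher (Igf1r, Igf2r, Igfbp2, Igfbp6) and 3 lower (Igf1, Igfbp4, Igfbp7), against 37.7% of genes called (22.3% higher, 15.4% lower), with medians of 0.37 and 0.05. Against FIH null cells 3 were higher (Igf1r, Igfbp3, Igfbp7) and 3 lower (Igf1, Igf2r, Igfbp4), against 45.5% called (20.6% higher, 25.0% lower), with medians of −0.08 and −0.04. Igfbp3 passed the filter only through the double null arrays and had to be high there, which leaves 2 higher without it. Without FIH null replicate 1 the count of 6 was 3. These comparisons share groups, so their counts are not independent. Over the 24 tested probe sets, FIH null cells had 5 calls against wild type where 4.33% of all tested probe sets were called, VHL null cells 11 (35.3%) and double null cells 16 (34.1%). Double null cells had 15 calls against VHL null cells (29.8%), 14 against FIH null cells (38.3%) and 10 for the interaction described next (15.7%). The Igfbp5 probe set 1452114_s_at passed the filter only through the double null arrays, and is in every count but that of FIH null against wild type. Its VHL null call compares wild type and VHL null arrays that were all under 291.1. The Igfbp3 probe set passed the same way and is in the count against FIH null cells. These counts thus hold calls on values that the filter used. They also count several probe sets of the same gene, which are not independent. The 16 double null calls include 4 probe sets of Igf1 and 5 of Igfbp4, and the 11 VHL null calls include 4 of Igfbp4. Scaling to the hybridization controls, which were brighter than in wild type by 0.26 on FIH null, 0.38 on VHL null and 0.52 on double null arrays, lowers every null group by that much. Under it VHL null cells had 1 member higher and 7 lower. Double null cells had 0 higher and 7 lower against wild type, and 2 higher and 4 lower against FIH null cells. Against VHL null cells the members kept 4 higher and 3 lower, while all genes went from 2574 higher and 1781 lower to 1390 higher and 3002 lower (median −0.09).

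The interaction tests whether the changes on losing each protein add up on the log2 scale. It was called for 5 of 10 genes, 4 positive and 1 negative, where 21.9% of all tested genes were called (13.4% positive, 8.47% negative). With median centring 3 members were positive and 1 negative, and all genes went from 1554 positive and 979 negative to 1047 and 1544. Igfbp2 had the largest value, 3.71 ± 0.33 (limma adjusted p = 2.37e-05), as VHL loss changed it by −3.81 in cells with FIH and by −0.10 in cells without. Igf2 was positive at 1.41 ± 0.27 (adjusted p = 0.00403), as each loss alone lowered it and no further fall was detected with both. Igfbp4 was negative at −2.12 ± 0.32 (adjusted p = 9.41e-04), as FIH loss changed it by −0.07 in cells with VHL and by −2.18 in cells without.

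Igfbp7 was positive at 0.66 ± 0.10 (limma adjusted p = 7.27e-04), with a rise on VHL loss of 0.58 with FIH and 1.24 without. Igf1r was positive at 0.46 ± 0.11 (adjusted p = 0.0141), a call lost without FIH null replicate 1 (0.0689) or VHL null replicate 2 (0.0543), or when arrays were centred on their medians (0.35, limma adjusted p of 0.0560). With the mean of probe sets the Igfbp7 and Igf1r interactions were no longer called (adjusted p = 0.237 and 0.318). Igf1 had no detected departure from additivity (−0.29 ± 0.23, adjusted p = 0.404), nor did Igf2r, Igfbp3 or Igfbp6, or Igfbp5 by its representative. When its probe sets were averaged, Igfbp5 was called (adjusted p = 0.0434), again on signals under 291.1 in 1452114_s_at.

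**Figure D4:**
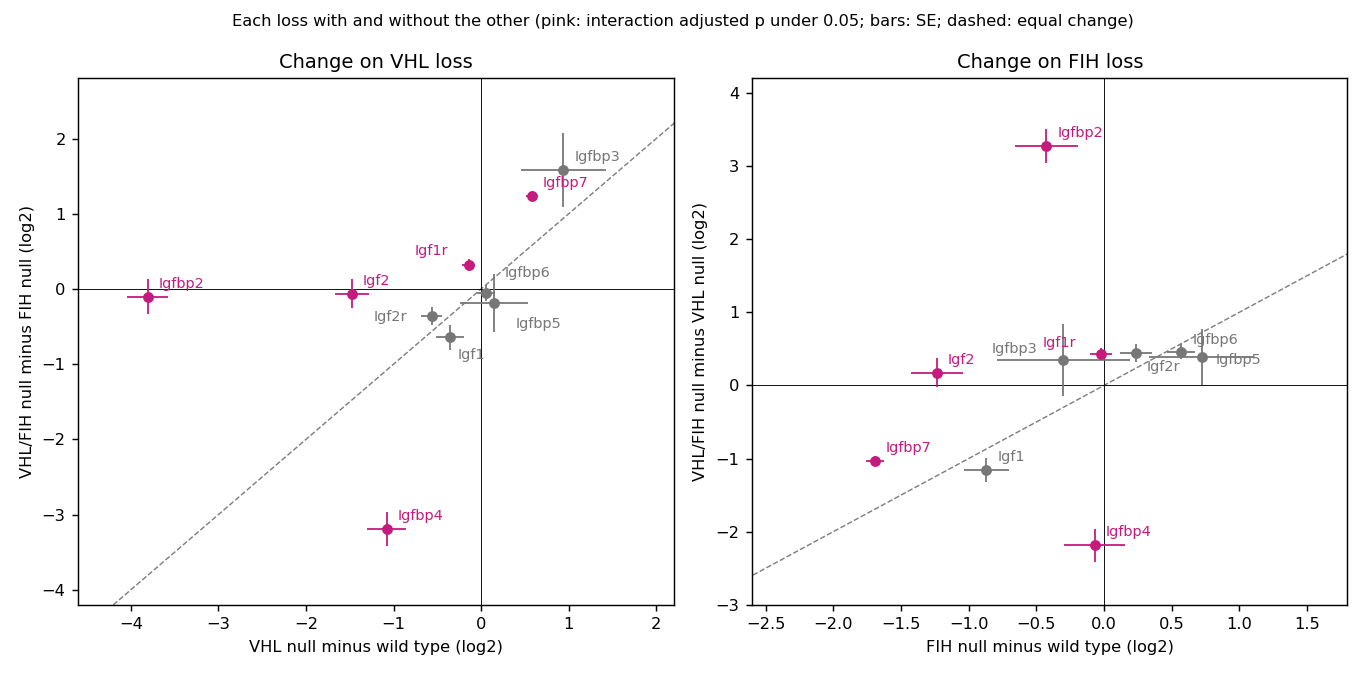
Log2 change of each gene on VHL loss (left) and on FIH loss (right), in cells that keep the other protein (x axis) and cells that lack it (y axis); bars are SE, the dashed line marks equal change and pink marks an interaction adjusted p under 0.05. Igfbp2 lies far left at −3.81 and near 0 in the left panel, while Igfbp4 lies below the dashed line in both panels.

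Other genes of the pathway were read from lists of 50 genes, of which 45 had a probe set and 36 were tested. Against wild type, FIH null cells had 1 higher and 3 lower, VHL null cells 8 higher and 18 lower, and double null cells 9 higher and 10 lower. All tested genes were called at 6.55%, 43.8% and 41.4%, respectively. The pathway medians were 0.03, −0.23 and −0.02, against −0.00, −0.10 and −0.05 over all genes. Double null cells had 11 higher and 4 lower than VHL null cells (37.7% of all genes called), and 9 higher and 11 lower than FIH null cells (45.5%). Stc1 passed the filter only through the arrays lacking VHL, so it had to be high there. It is among the genes higher than wild type in VHL null and double null cells, and higher in double null than in FIH null cells. It is also among the 3 lower in FIH null cells, although all wild type and FIH null arrays were under 291.1. Among the adaptors that relay signals from the receptor, 6 of 9 tested were lower in VHL null cells (Irs2, Shc1, Grb2, Grb14, Gab1 and Sos1) and 1 was higher (Ptpn11), beside 28.4% and 15.5% of all genes.

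The regulators of the binding proteins described here are Stc1, Stc2, Htra1 and Adam12. Stc1, stanniocalcin 1, an inhibitor of PAPP-A, averaged 159 in wild type and 42.0 in FIH null cells, against 5061 with VHL lost and 5268 with both lost. With wild type set at 291.1, it was at least 17.4-fold higher with VHL lost and 18.1-fold higher with both lost. Stc1 passed the filter only through the arrays lacking VHL, so this is a description. Stc2, its relative with the same action, rose by 1.27 ± 0.26 on VHL loss (limma adjusted p = 0.00258) and by 1.15 ± 0.26 when both were lost (adjusted p = 0.00468). Htra1, a secreted serine protease that can cleave binding proteins, averaged 14506 in wild type, 18775 with FIH lost, 15392 with VHL lost and 3620.2 with both lost. The double null mean was 4.01-fold below wild type (adjusted p = 3.63e-09), and the interaction was −2.46 ± 0.10 (adjusted p = 4.62e-08), negative as for Igfbp4. Adam12, a metalloprotease that can cleave binding proteins, averaged 696 in wild type, 455 with FIH lost, 1195 with VHL lost and 1314 with both lost. It was called higher than wild type in both groups lacking VHL, with no call between those groups. Double null cells were 1.50 ± 0.16 above FIH null cells (limma adjusted p = 2.94e-05).

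Downstream, Grb14, an adaptor that restrains insulin receptor signalling, averaged 528 in wild type, 347 with FIH lost, 139 with VHL lost and 654 with both lost. It was at least 1.81-fold lower in VHL null than in wild type cells (limma adjusted p = 4.72e-04) and at least 2.25-fold higher in double null than in VHL null cells (adjusted p = 1.96e-04). Foxo3, a transcription factor restrained by AKT, averaged 2733 in wild type, 3160 with FIH lost, 4670 with VHL lost and 5761 with both lost. It was called higher than wild type in both groups lacking VHL, with no call between those groups. The rise when both proteins were lost was 1.08 ± 0.11 (limma adjusted p = 2.23e-05). Akt1, a kinase that carries the PI3 kinase signal, fell by −0.49 ± 0.06 in VHL null cells (adjusted p = 1.59e-04) and was also called lower in double null cells. Insr, the insulin receptor, was 0.79 ± 0.16 higher in double null than in VHL null cells (adjusted p = 0.00288).

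Among regulators of ligand transcripts, Plagl1, an imprinted zinc finger factor, averaged 12585 in wild type, 10297 with FIH lost, 8322 with VHL lost and 28042 with both lost, a rise of 1.15 ± 0.10 (limma adjusted p = 4.78e-06). Hmga2, a chromatin protein of embryonic cells, averaged 23910 in wild type, 14856 with FIH lost, 34687 with VHL lost and 30018 with both lost. It was called higher than wild type in both groups lacking VHL. The change in FIH null cells was −0.70 ± 0.11 from wild type (limma adjusted p = 0.00250). Double null cells were 1.03 ± 0.11 above FIH null cells (adjusted p = 2.01e-05).

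For the 3 members with the widest range, the 3 genes with the most similar changes from wild type were found by the root mean square difference over the 3 null genotypes. Igfbp2 was nearest to Kif17 (0.59), Svep1 (0.61) and Garnl3 (0.67), all under 291.1 on both VHL null arrays, so these distances rest partly on values with no exact level. Kif17 and Garnl3 were also under 291.1 on both FIH null arrays. Garnl3 was under it on both double null arrays too, so it passed the filter only through the wild type arrays. Kif17 encodes a kinesin motor and Svep1 an extracellular adhesion protein. Igfbp4 was nearest to Parp3 (0.18), Syt12 (0.35) and Anpep (0.35). Parp3, an ADP-ribosyltransferase, read 5915 and 5667 in wild type, 5689 and 6576 in FIH null, 2236 and 2319 in VHL null, and 583 and 652 in double null cells. Igfbp7 was nearest to Sox5 (0.10), Clmp (0.12) and Pkp1 (0.13). Clmp, a cell adhesion molecule, read 1972 and 2028 in wild type, 723 and 615 in FIH null, 3090.1 and 2948 in VHL null, and 1545 and 1722 in double null cells. Syt12 and Anpep were under 291.1 on both double null arrays, and Sox5 was above it only in VHL null cells.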

How the data were processed

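Total RNA was measured on 8 Affymetrix arrays, and the deposited values are intensities on a linear scale, made by the authors with MAS5 per the submitters' processing notes, with no version given and 1 value for each of 45101 probe sets (64 controls were left out). Every array had a trimmed mean (2% at each end) of 2500.01, and the small number of arrays limits the precision. Probe sets were named through the platform annotation, with symbols updated by Entrez ID. Group means of log2(signal + 16) were fitted over all 8 arrays with limma 3.58.1 in R 4.3.3 (lmFit, eBayes with a variance trend), and 5 pairwise contrasts and the interaction were tested. The filter, the gene-level choice and the threshold are given with the results. A separate fit used all 24523 tested probe sets. The script was tested on simulated data.

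The members, pathway lists, markers and rules for named genes were chosen with earlier results of these data known. Named pathway genes were picked in each list for each comparison. They are those called with a log2 change of at least 1, or, where there was none, the gene with the smallest p. Of those picked by the smallest p, Foxo4, Pik3r1 and Igf2bp1 are not described. Stretches of 250 bases before RefSeq start sites were searched for motifs. Protein sequences were not used here. Alternatives covered the pseudocount, filter, scaling, variance trend, groups fitted, choice of probe set, a replicate block, a 2-fold minimum and leaving out each array.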

Additional observations from a re-analysis of the deposited data

Results flagged for a closer look

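The change on VHL loss differed with the FIH genotype for 5 of the 10 genes by the limma interaction term, of which each value is the change in cells without FIH minus the change in cells with it. The difference was 3.71 ± 0.33 (log2 ± SE) for Igfbp2, which changed by −3.81 in cells with FIH and −0.10 in cells without. For Igfbp4 it was −2.12 ± 0.32, from −1.08 and −3.19. It was 1.41 ± 0.27 for Igf2 (−1.48 and −0.07), 0.66 ± 0.10 for Igfbp7 (0.58 and 1.24) and 0.46 ± 0.11 for Igf1r (−0.14 and 0.31). Among all tested genes 21.9% had such a call, and the lines behind the groups differ as well as the genotypes. No group had enough arrays to test for an array that stands apart.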

How the results depend on the processing

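Of 60 comparisons of a member gene, 33 were called. Of these, 21 kept direction and call under every alternative refitted for single genes, and 12 did not: 11 lost the call and 2 turned, with Igf1r in double null against wild type doing both under different alternatives. The 2-fold minimum is a rule of size and not such a refit: it would end 4 of the 21 calls, Igf2r and Igfbp7 in VHL null cells among them. Of the 27 not called, 11 passed under some alternative. Where an array is left out, the lone sample is assumed to vary like the other groups. With 2 arrays a group, small changes and probe sets near 291.1 are measured least well. The cause was not tested for any change listed here.

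Replicate numbers did not pair the samples: deviations of same-numbered samples correlated at 0.00869 to 0.0393 over 6 pairs of groups. With the replicate number as a block, FIH null cells had 4 members called against wild type, VHL null cells 5 and double null cells 7, Igfbp2 being added (−0.53, limma adjusted p = 0.0439). No other member gene changed its call under the block.

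A filter at the 75th percentile, 2454.33, left 2 members called on FIH loss, since Igf1 and Igf2 were under it on every array and were not tested. A 2-fold minimum also left 2. With that minimum the numbers were 3 on VHL loss, 3 for double null against wild type, 4 against VHL null, 3 against FIH null and 3 for the interaction. Scaling to hybridization controls gave 8 on VHL loss. Leaving out _x_at, _s_at and _a_at probe sets, which removes Igfbp2, Igfbp4 and Igfbp5, gave 3 on VHL loss and 3 for the interaction. Over all genes, FIH loss had 1426 calls with median centring (1015 higher, 411 lower), 5105 with hybridization scaling (70 higher), 421 with no variance trend and 212 with the 2-fold minimum. Hybridization scaling gave 8387 calls on VHL loss (430 higher) and 9136 in double null cells (507 higher), and shifted the median gene to −0.26, −0.48 and −0.57 in the 3 null groups. The 2-fold minimum gave 627, 805, 693, 901 and 636 in the other comparisons, in the order above. With the 75th percentile filter the called member probe sets numbered 2, 6, 6, 7, 6 and 5, and with hybridization scaling 9 on FIH loss.

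Leaving out an array in turn gave 2 to 5 members, 2 to 5 member probe sets and 354 to 957 genes called on FIH loss. It gave 3 to 6 members and 8 to 13 member probe sets in double null against FIH null cells, and 1645 to 2524 genes for the interaction.

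Directions turned as follows. On FIH loss, Igf1r was 0.070 and Igfbp4 0.025 with median centring, and Igf2r −0.020 with hybridization scaling. Leaving out arrays moved Igf1r from −0.094 to 0.049, Igfbp3 from −0.79 to 0.19 and Igfbp4 from −0.21 to 0.076. On VHL loss, hybridization scaling gave −0.23 for Igfbp5 and −0.32 for Igfbp6, the mean of probe sets −1.15 for Igfbp5, and left-out arrays −0.38 to 0.67 for Igfbp5 and −0.030 to 0.15 for Igfbp6. For double null against wild type, hybridization scaling gave −0.23 for Igf1r and −0.0012 for Igfbp6. Against VHL null, Igfbp5 ran from −0.14 to 0.91 over left-out arrays. Against FIH null, left-out arrays gave −0.29 to 0.16 for Igf2, −0.59 to 0.38 for Igfbp2 and −0.16 to 0.060 for Igfbp6, which was 0.014 with quantile normalization, and Igfbp5 was 0.70 with the mean of probe sets. For the interaction, Igfbp5 was 1.85 with the mean of probe sets (called) and −0.86 to 0.19 over left-out arrays. Igfbp6 was 0.0036 with hybridization scaling and −0.22 to 0.0023 over left-out arrays, and Igf2r ran from −0.0072 to 0.42. The interaction had no value with only the compared groups fitted.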
